A study of Homo sapiens with 16 samples.

Results

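The genes described are 10 that make, store, take up or break down catecholamines, or that fill the dense-core granules in which these transmitters are kept. They were taken by symbol from a table of 58787 Ensembl gene identifiers. DBH, TH and DDC encode enzymes of synthesis, GCH1 the first enzyme of a cofactor, MAOA an enzyme of breakdown, SLC18A1, SLC18A2 and SLC6A2 transporters, and CHGA and CHGB granule proteins. All 10 were found in the table, and 9 had enough counts to be tested among 14193 genes. SLC18A1 did not.

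The cells were IMR32, an established human neuroblastoma line in which MYCN is amplified, and their RNA was profiled after treatment with small interfering RNAs (siRNAs). The 3 siRNAs named si45, si46 and si47 were directed against TPX2, a protein of the mitotic spindle that activates the kinase AURKA, and siNTC was the non-targeting control. Each of these 4 groups had 4 libraries, described in the design text as biological replicates, and 48 h stands in the column names of the count table. No other agent or allele is named in the labels, all groups are 1 cell line, and whether the replicates were separate transfections is not given in the sources used here. The p-values below measure the spread between these libraries.

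Catecholamines are made from tyrosine, which tyrosine hydroxylase (TH) turns into DOPA with tetrahydrobiopterin as cofactor, DOPA decarboxylase (DDC) turns into dopamine, and dopamine beta-hydroxylase (DBH) turns into noradrenaline inside the granule. Vesicular monoamine transporters (SLC18A1 and SLC18A2) load the granule, the noradrenaline transporter (SLC6A2) recovers released transmitter, and chromogranins (CHGA and CHGB) are the main soluble proteins that condense in it. Neuroblastoma arises from sympathetic precursors, and its catecholamine breakdown products, chromogranin A and uptake through SLC6A2 are used in its diagnosis.

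Libraries held 5318159 to 7864343 counts, with a median of 5966582, and the 10 genes took between 0.0827% and 0.167% of the counts of a library. Levels are given as CPM, the count scaled to a common library size after TMM adjustment. Because reads of the 3' end kit stand for about 1 transcript each, CPM was not divided by length. TPX2 was at 327 ± 27.1 CPM in siNTC (SD, n = 4), 91.6 ± 19.8 in si45, 81.7 ± 14.3 in si46 and 71.5 ± 3.37 in si47, and all 12 knockdown libraries lay below all 4 controls. Within each knockdown group the library numbered 3 had the most TPX2, at 121 CPM in si45, 93.8 in si46 and 76.3 in si47. The labels give the tissue as brain and the cell type as neuroblast; markers of an adrenergic neuroblast were present in every library, with GATA3 highest at 1106 CPM in siNTC. The 5 genes summed were PHOX2A, HAND2, GATA3, ISL1 and MYCN. Their sum was 3247 to 3520 CPM in siNTC, 3357 to 4366 in si45, 3760 to 4319 in si46 and 3900 to 4717 in si47. All si46 and si47 libraries thus lay above all controls, which held for 5.06% and 7.41% of single tested genes. MYCN, amplified in this line, was at 965 CPM in siNTC, and the sum without it was not examined. The part of the shift in this sum in the results below was not tested.

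Before any comparison, the genes differed widely in level. In siNTC the order was CHGA at 544 ± 50.1 CPM (SD, n = 4), DBH at 234 ± 35.7, CHGB at 65.2 ± 10.4, SLC6A2 at 50.4 ± 5.91 and MAOA at 19.8 ± 2.77. DDC followed at 11.2 ± 2.40 CPM, SLC18A2 at 4.16 ± 1.31, TH at 2.78 ± 0.836 and GCH1 at 2.06 ± 0.717, and SLC18A1 had no count. Among the tested genes CHGA stood at percentile 98.1 and DBH at 94.4, whereas TH stood at 14.8 and GCH1 at 10.3. The control libraries of neighbours in this order did not overlap, except for CHGB with SLC6A2, SLC18A2 with TH, and TH with GCH1. The rate-limiting enzyme TH was thus counted far less than DBH, which acts later in the same pathway. Genes can differ in how well their 3' ends are captured, and the part of this in the order was not tested.

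**Figure D1:**
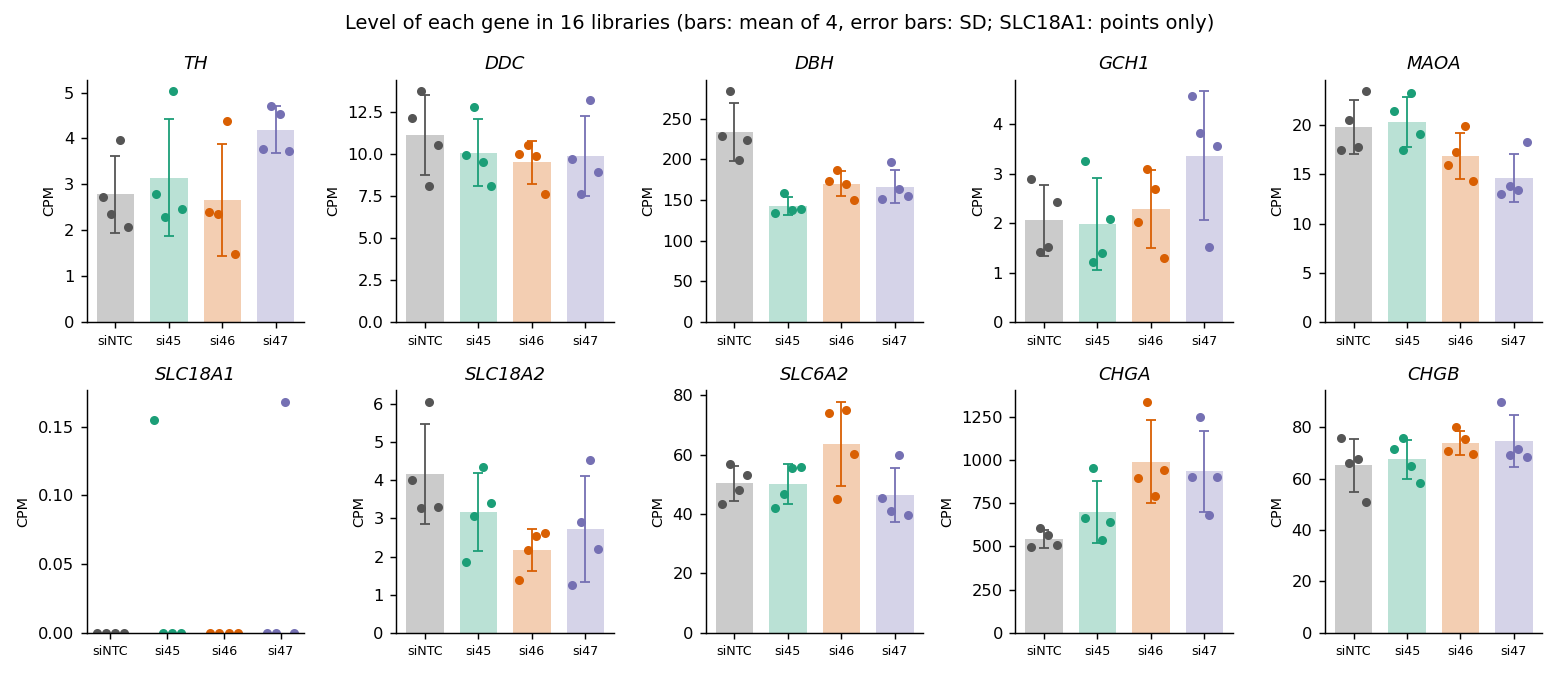
Level in CPM (vertical axis, a separate scale for each gene) of the 10 genes in the 4 groups. Points are the 16 libraries, in replicate order from left to right within a group, bars are means of 4 and error bars are SDs; SLC18A1, with 2 counts in all, is drawn as points only. DBH lies below all 4 siNTC libraries in all 12 knockdown libraries, and CHGA lies above them in 11 of 12.

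With si45, 0 of the 9 tested genes rose and 1 fell (edgeR quasi-likelihood test, Benjamini-Hochberg adjusted p under 0.05), where 1.34% of all tested genes passed that threshold, 1.01% higher and 0.324% lower. With si46, 1 rose and 1 fell, beside 3.4% of all tested genes, 2.14% higher and 1.25% lower. With si47, 1 rose and 1 fell, beside 9.74%, 4.91% higher and 4.83% lower. When the 3 siRNAs were averaged and set against siNTC, 1 rose and 1 fell, beside 7.14%, 3.61% higher and 3.53% lower. The gene that fell was DBH each time and the gene that rose was CHGA. The other 7 passed the threshold in none of these 4 contrasts. The median log2 fold change of the 9 was -0.012 with si45, -0.054 with si46 and -0.12 with si47. Over all tested genes these medians were 0.0010, 0.0024 and 0.0043. For the averaged siRNAs the median of the 9 was 0.07, beside -0.0011 over all tested genes. The contrasts share the siNTC libraries and are not independent of each other.

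DBH, the enzyme that makes noradrenaline, fell with each of the 3 siRNAs. Its gene lies on chromosome 9 (chr9:133635348-133659344, plus strand, GRCh38, GENCODE v29). In siNTC its levels were 228, 284, 199 and 224 CPM in replicates 1 to 4. They were 134, 159, 138 and 139 CPM in si45. The 12 knockdown libraries together ran from 134 to 196 CPM, so the highest of them lay just below the lowest control at 199. In si46 the levels were 173, 187, 170 and 150 CPM, and in si47 they were 151, 196, 164 and 155 CPM. Replicate 2 was the highest in all 4 groups. Over all tested genes, 1.03% had all 12 knockdown libraries below all 4 controls, and 2.95%, 4.67% and 6.98% had the 4 libraries of si45, si46 and si47 below them.

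The fall of DBH was -0.71 ± 0.102 on the log2 scale with si45 (SE, adjusted p = 2.78e-05, edgeR), which left 60.9% of the control mean. The fall was -0.46 ± 0.101 with si46 (adjusted p = 0.00569, edgeR; 72.6% of the control mean) and -0.49 ± 0.101 with si47 (adjusted p = 0.00122, edgeR; 71.2%). For the mean of the siRNAs the log2 fold change was -0.56, with a 95% interval of -0.72 to -0.39 (adjusted p = 1.27e-05, edgeR). DBH was 0.25 log2 higher with si46 than with si45 (95% interval 0.05 to 0.46) and 0.22 higher with si47 than with si45 (0.02 to 0.43), and neither difference passed the threshold (adjusted p of 0.430 for the second and higher for the first, edgeR). Leaving out any 1 of the 16 libraries ended the call once: without siNTC replicate 2, the highest control, si46 gave -0.35 (adjusted p = 0.0553, edgeR). An antisense gene with shared exons, DBH-AS1, had 129 counts in the 16 libraries against 17162 for DBH, and whether counting used strand is not given in the sources used here.

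CHGA, the chromogranin whose fragments are also hormones, rose with si46 and with si47. Its gene lies on chromosome 14 (chr14:92923080-92935293, plus strand). In siNTC its levels were 499, 604, 565 and 506 CPM in replicates 1 to 4. They were 667, 954, 537 and 643 CPM in si45, where replicate 3 fell inside the range of the controls. In si46 they were 895, 1336, 789 and 941 CPM. In si47 they were 903, 1249, 680 and 903 CPM. All 8 libraries of these 2 siRNAs lay above all 4 controls, as did 3 of the 4 with si45; over all tested genes, 5.06% had the 4 si46 libraries above the controls and 7.41% the 4 si47 libraries.

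The log2 fold change of CHGA was 0.86 ± 0.215 with si46 (SE, adjusted p = 0.0464, edgeR) and 0.78 ± 0.215 with si47 (adjusted p = 0.0375, edgeR), or 1.82-fold and 1.72-fold. With si45 it was 0.37, with a 95% interval of -0.10 to 0.83 (adjusted p = 0.574, edgeR), and for the mean of the siRNAs 0.67 ± 0.182 (adjusted p = 0.0431, edgeR). These p-values were close to the threshold and changed with the tool and with single libraries. DESeq2 gave adjusted p = 0.00623, 0.00855 and 0.00644 for si46, si47 and the mean, and limma-voom gave 0.00206, 0.00250 and 0.00255. Of the settings other than leaving out 1 library, 9 of 10, 9 of 10 and 8 of 9 kept the call, and the fit with no low-count filter did not. Leaving out each library in turn ended the call in 11 of 16 fits for si46, 7 of 16 for si47 and 10 of 16 for the mean, with adjusted p from 0.0191 to 0.128, 0.0147 to 0.0964 and 0.0211 to 0.133. Omitting any 1 of the 4 siNTC libraries ended all 3 calls, and so did replicates 1, 2 and 4 of si46 for si46 and the same replicates of si47 for si47. The other fits that ended the call for si46 left out replicate 1 or 4 of si45 or si47, which are not in that contrast. For the mean they left out replicate 1 or 4 of any siRNA. Each fit without 1 library also tested more genes, 14419 to 14495 in place of 14193. The part of this in the lost calls was not tested. The fold change itself kept its sign in all of these fits and ran from 0.69 to 0.96 for si46 and from 0.61 to 0.90 for si47.

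Part of the spread of CHGA followed the replicate number. Replicate 2 was highest in all 4 groups, and replicate 3, which kept the most TPX2 in each knockdown group, had the least CHGA in each of them. The part of the TPX2 level in this order was not tested. Libraries of si45 and si47 with the same number deviated together over all genes, but weakly (r = 0.12 to 0.24). For si45 with si46 the r ran from 0.072 to 0.25. Libraries with different numbers were not set beside these. The difference in CHGA between si47 and si45 was 0.41 (adjusted p = 0.534, edgeR), and with the replicate number as a block in the model it was 0.42 and passed the threshold (adjusted p = 0.00249, edgeR). With the block CHGA also passed for si45 against siNTC and si46 against si45 (adjusted p = 0.0138 and 9.70e-04, edgeR). For those groups 2 of 4 and 3 of 4 same-numbered pairs had r over 0.1. When the 4 libraries numbered 2, or the 4 numbered 3, were left out, a choice made after seeing the data, CHGA rose with si46 and si47 and DBH fell with all 3 siRNAs.

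DBH fell and CHGA rose with si46 and si47, so the balance of the 2 transcripts shifted. The ratio of CHGA to DBH counts, which does not depend on the scaling of the library, was 2.13 to 2.84 in the 4 siNTC libraries, 3.89 to 5.99 in si45, 4.64 to 7.16 in si46 and 4.16 to 6.36 in si47. This ratio was chosen after both values had been seen and is given without a test. No knockdown library reached down to the highest control ratio. Over the 16 libraries the log2 levels of the 2 genes had r = -0.22, and their deviations from the group means had r = 0.55. The libraries share 4 groups and replicate numbers, so these are descriptions only. In bulk RNA, fewer cells that express a gene and less of its RNA per cell cannot be told apart.

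**Figure D2:**
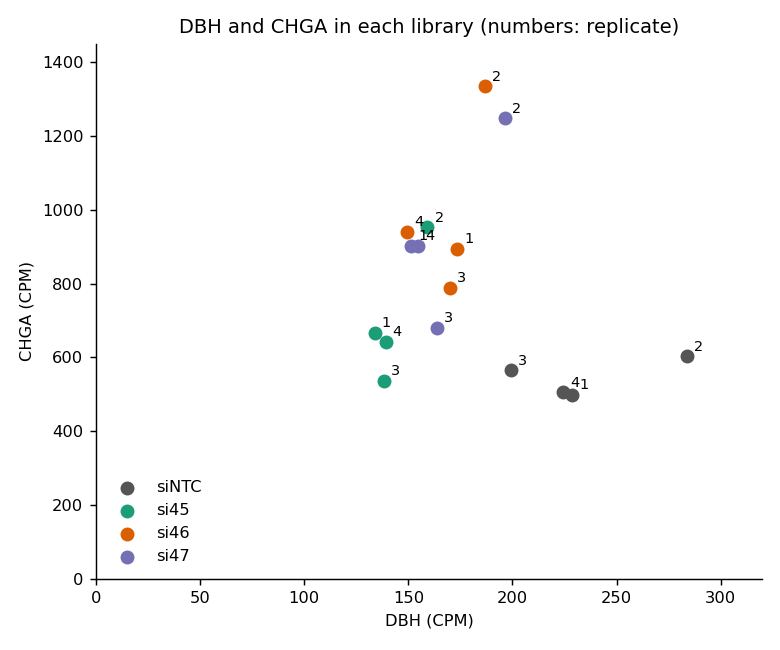
CHGA (vertical axis, CPM) against DBH (horizontal axis, CPM) in each of the 16 libraries, coloured by siRNA and numbered by replicate. The 4 siNTC libraries sit at the lower right, at 199 to 284 CPM of DBH; within each group the library numbered 2 is highest on both axes.

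Short stretches before the RefSeq transcription start are shown for the genes on which these results turn, since the chromogranin and catecholamine genes are textbook targets of factors that bind the cyclic AMP response element (CRE). RefSeq windows from 250 bases before to 50 after the start (GRCh38.p14) were held for 5 of the 10 genes. RefSeq starts differ from the GENCODE v29 gene bounds given above: the CHGA and DBH stretches lie before the RefSeq start but inside the GENCODE gene. The full element, TGACGTCA, was in 1.85% of 35116 windows, and its shorter form TGACG, on either strand, was in 24.6%, every full element included. Capitals mark the match, and each line reads 5′ to 3′ on the strand of the gene.
CHGA: gcggcaccgcTGACGTCAtttccggggt
SLC18A2: cctccggccgTGACGTCAgagccggacg
DBH: actcccactgaTGACGtccatgtgtcat
VGF: gaatgaacatTGACGTCAatggggcggg
The CHGA stretch is chr14:92923086-92923113 with its element beginning at base -54 counted from the start, and the SLC18A2 stretch is chr10:117241056-117241083 with its element at base -48. The DBH window held only the short form (chr9:133636171-133636198, base -181). VGF, a granule protein described below, held the full element at base -79 (chr7:101165631-101165658, minus strand). The DDC and MAOA windows held neither form. CHGA and VGF rose with si46 and si47, and SLC18A2, with the same element, did not pass the test. VIP, CPE, SYT4 and EGR1, which also rose and are described below, held only the short form. Of genes described below that fell, SLC18A3 held only the short form, and SV2A, DACH1 and EBF1 held neither form. No window was held for SCG2 and TBX2, which rose, or for DOC2B, which fell, and HAND2 was not searched. Whether these matches bear on the changes was not tested. A match of letters is a description and not a site.

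TH, the rate-limiting enzyme, was too sparse for a firm statement. It had 8 to 29 counts in a library and 305 in all. Levels were 2.73, 2.35, 3.97 and 2.08 CPM in siNTC and 3.77, 4.72, 4.54 and 3.73 CPM in si47, where 2 of 4 libraries lay above all controls. The log2 fold change with si47 was 0.59, with a 95% interval of -0.20 to 1.39 (adjusted p = 0.380, edgeR). With si45 and si46 the values were 0.18 (-0.63 to 0.99) and -0.05 (-0.87 to 0.76), and the groups overlapped. The interval for si46 includes a fall as large as that of DBH, and the one for si45 ends at -0.63, just short of the -0.71 of DBH.

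DDC, which acts between TH and DBH, had 8.13 to 13.8 CPM in siNTC and 7.62 to 13.3 CPM in the knockdown libraries. Its log2 fold change was -0.14 with si45, -0.23 with si46 and -0.18 with si47, and -0.18 for the mean, with a 95% interval of -0.55 to 0.19 (adjusted p = 0.628, edgeR). The groups overlapped, and 2 of 12 knockdown libraries lay below all controls. The intervals for si46 and si47, which end at -0.69 and -0.63, include a fall as large as that of DBH with the same siRNA. The one for si45 ends at -0.60, short of the -0.71 of DBH, and the one for the mean at -0.554, just short of -0.556.

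GCH1, the first enzyme of tetrahydrobiopterin synthesis, was the least abundant of the 9 tested members in siNTC. It had 7 to 29 counts in a library. Its levels were 2.89, 1.41, 1.51 and 2.43 CPM in siNTC, and its means were 1.99 ± 0.926 CPM in si45 (SD, n = 4) and 2.28 ± 0.785 in si46. In si47 the levels were 4.56, 3.81, 1.51 and 3.56 CPM, of which 3 lay above all controls. The log2 fold change with si47 was 0.70, with a 95% interval of -0.22 to 1.62 (adjusted p = 0.371, edgeR).

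MAOA, the mitochondrial enzyme that deaminates noradrenaline and serotonin, had 17.5, 20.5, 17.8 and 23.4 CPM in siNTC. The si47 libraries had 13.0, 13.8, 13.4 and 18.3 CPM, of which 3 lay below all controls and replicate 4 lay among them. The log2 fold change with si47 was -0.44 ± 0.174 (SE; unadjusted p = 0.0170 and adjusted p = 0.113, edgeR), which did not pass the threshold. With si46 it was -0.23 and with si45 0.04. Between si47 and si45 the difference was -0.47, with a 95% interval of -0.82 to -0.12 (adjusted p = 0.277, edgeR).

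The 2 vesicular transporters differed in whether they were counted at all. SLC18A1, the form typical of endocrine chromaffin cells, had 1 count in si45 replicate 1 and 1 in si47 replicate 3, and none in the other 14 libraries. A count of 0 allows up to 3 counts, or 0.380 to 0.567 CPM depending on the library, and covers counting error only. SLC18A2, the form typical of neurons, had 4.01, 3.28, 6.05 and 3.30 CPM in siNTC and 1.39, 2.18, 2.53 and 2.61 CPM in si46. All 4 si46 libraries lay below all controls, which held for 4.67% of all tested genes.

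SLC18A2 gave a log2 fold change of -0.94 with si46, with a 95% interval of -1.79 to -0.09 (unadjusted p = 0.0313, adjusted p = 0.270, edgeR). It was -0.39 with si45 and -0.61 with si47, and -0.65 for the mean, with a 95% interval of -1.30 to 0.01 (adjusted p = 0.256, edgeR). All 3 estimates were below 0, and 9 of 12 knockdown libraries lay below all controls, but none passed the threshold. The gene had 288 counts in all. It shares exons on the opposite strand with PDZD8, which had 4157, so that reads of both cannot be told apart if counting ignored strand.

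SLC6A2, the noradrenaline transporter, had 43.5, 56.9, 48.04 and 53.3 CPM in siNTC. The si46 libraries had 74.1, 45.1, 75.2 and 60.4 CPM, of which 3 lay above all controls, whereas the si47 libraries had 45.4, 41.0, 59.8 and 39.8 CPM. The log2 fold change was 0.34 with si46 (95% interval 0.04 to 0.64; adjusted p = 0.249, edgeR) and -0.12 with si47 (-0.42 to 0.19; adjusted p = 0.699, edgeR). The difference between si47 and si46 was -0.46 ± 0.147 (SE; unadjusted p = 0.00409, adjusted p = 0.401, edgeR). Without the replicate block, no gene of the 10 passed the threshold in any pair of siRNAs, where 0.0282% of tested genes did so for si46 against si45, 0.169% for si47 against si45 and 0.0493% for si47 against si46. At an unadjusted p under 0.05 the counts were 3, 2 and 1 of 9, and the share of all tested genes at that level was not taken. DESeq2 and limma-voom also called 0, where of 14193 genes DESeq2 called 13, 153 and 45 and limma-voom 4, 22 and 7.

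CHGB, the other chromogranin, passed the threshold in no contrast. It had 76.0, 66.2, 67.5 and 51.0 CPM in siNTC, and its group means were 67.6 ± 7.61 CPM in si45 (SD, n = 4), 74.0 ± 4.79 in si46 and 74.8 ± 10.2 in si47. For the mean of the siRNAs its log2 fold change was 0.14, with a 95% interval of -0.05 to 0.34 (adjusted p = 0.425, edgeR), which lies below the estimate of 0.67 for CHGA. The intervals of the 2 genes, -0.05 to 0.34 and 0.28 to 1.06, overlapped, and the difference between them was not tested. The ratio of CHGA to CHGB counts was 6.56 to 9.93 in siNTC and 8.26 to 18.1 in the 12 knockdown libraries.

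**Figure D3:**
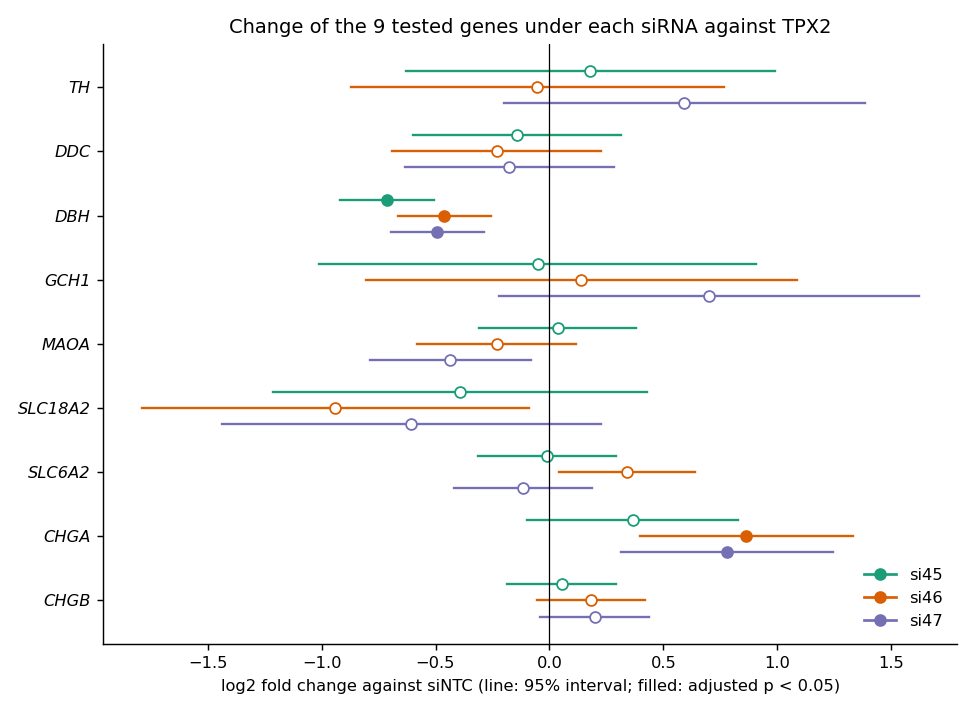
Log2 fold change against siNTC (horizontal axis) of the 9 tested genes under si45, si46 and si47. Points are edgeR estimates, lines are 95% intervals, and filled points passed an adjusted p of 0.05; DBH is filled for all 3 siRNAs at -0.71, -0.46 and -0.49, and CHGA for si46 and si47 at 0.86 and 0.78.

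Other genes of the pathway were examined in 5 lists, which were chosen with earlier results of these data known. For the averaged siRNAs against siNTC, 7.14% of tested genes passed the threshold, 3.61% higher and 3.53% lower. Among the genes of cofactor supply and transmitter breakdown, 12 of 17 were tested, and 0 rose and 0 fell, with a median log2 fold change of 0.04. DESeq2 and limma-voom also called 0, beside 1233 and 972 of 14193 tested genes. With edgeR 2 had an unadjusted p under 0.05, and the share of all tested genes at that level was not taken. PTS, SPR, QDPR and PCBD1, which make or regenerate tetrahydrobiopterin, gave 0.70, -0.02, 0.13 and 0.08. PTS was also sparse, at 3.38 CPM in siNTC.

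Among transmitter transporters and receptors, 13 of 18 were tested, 0 rose and 1 fell, with a median of -0.10. SLC18A3, the vesicular acetylcholine transporter, fell by 0.37 on the log2 scale (adjusted p = 0.0399, edgeR). It was at 61.1 ± 8.41 CPM in siNTC (SD, n = 4), higher than SLC18A2, and at 52.4 ± 8.98 in si45, 48.2 ± 7.52 in si46 and 41.6 ± 8.29 in si47. Of the single siRNAs, only si47 passed the threshold (-0.55, adjusted p = 0.0103, edgeR), and the call for the mean was lost in 11 of 16 fits that each left out 1 library, with adjusted p up to 0.227. The nicotinic receptor subunits CHRNA3, CHRNA5, CHRNA7, CHRNB2 and CHRNB4 ranged from -0.11 to 0.28, and none passed.

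Among granule cargo and processing genes, 13 of 21 were tested, 4 rose and 0 fell, with a median of 0.09. VIP, a neuropeptide, was at 1.60 to 3.97 CPM in siNTC and at 9.71 to 22.9 CPM in the 12 knockdown libraries. Its log2 fold change was 2.21 with si45, 2.97 with si46 and 2.45 with si47 (adjusted p = 9.14e-07, 7.08e-10 and 3.98e-08, edgeR). VGF, a precursor of granule peptides, was at 50.1 to 65.1 CPM in siNTC and rose with si46 by 1.36 and with si47 by 1.58 (adjusted p = 0.0259 and 0.00480, edgeR). With si45 its value was 0.80 (adjusted p = 0.300, edgeR). Without the 4 libraries numbered 2, the mean of the siRNAs gave 1.13 for VGF and missed the threshold (adjusted p = 0.0658, edgeR).

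SCG2, secretogranin II and a relative of the chromogranins in the granule, rose with si46 by 0.85 and with si47 by 1.01 on the log2 scale (adjusted p = 0.00782 and 7.69e-04, edgeR). Its 12 knockdown libraries, at 68.5 to 145 CPM, lay above all 4 controls, at 48.8 to 68.5 CPM, by a narrow margin at the lower end. CPE, carboxypeptidase E, which trims peptide precursors in the granule, rose with si45 by 0.44 and with si47 by 0.74 (adjusted p = 0.0197 and 6.03e-06, edgeR). With si46 CPE gave 0.34 (adjusted p = 0.0638, edgeR). All 12 knockdown libraries lay above all 4 controls for VIP, SCG2 and CPE, and 11 of 12 for VGF, where 1.49% of tested genes had all 12 above. The other genes of this list did not pass for the averaged siRNAs: GAL gave 0.44, SCG3 -0.07, PCSK1N 0.27 and ADCYAP1 -0.04. PTPRN2, sparse at 4.57 CPM in siNTC, gave -0.89 (adjusted p = 0.123, edgeR). FURIN gave -0.25, PTPRN -0.12, PAM 0.09 and CPD 0.01.

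**Figure D4:**
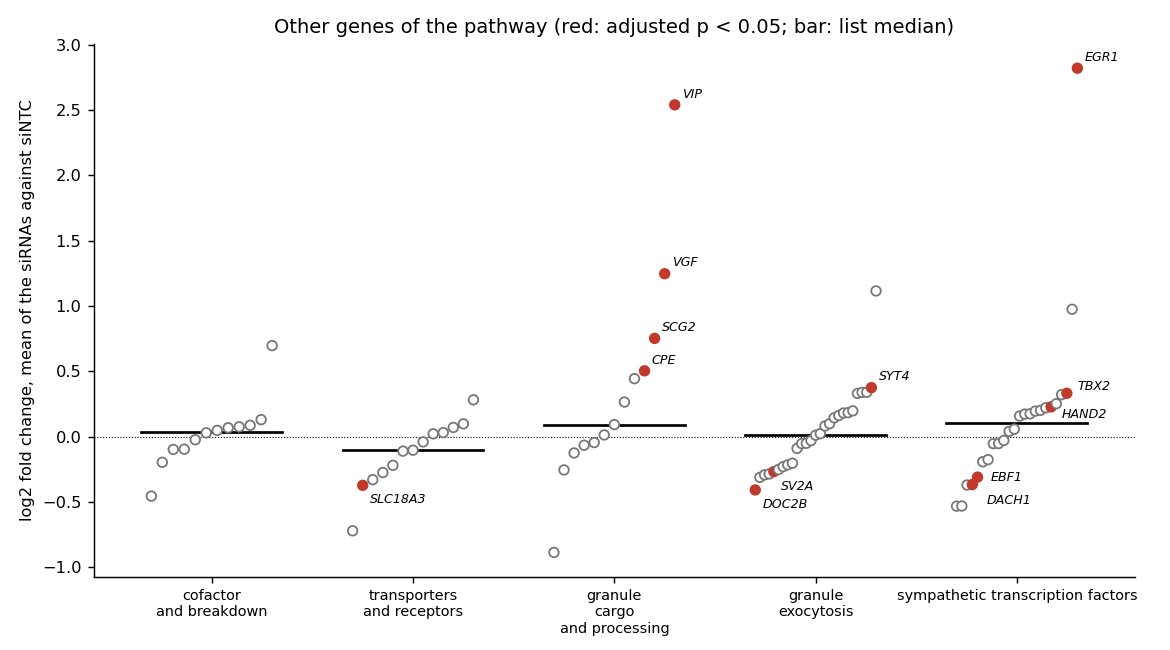
Log2 fold change for the mean of the 3 siRNAs against siNTC (vertical axis) of each tested gene in 5 lists (horizontal axis), sorted by value within a list. Red points passed an adjusted p of 0.05 (edgeR) and are named, and horizontal bars are list medians, which run from -0.10 to 0.11; the granule cargo list holds 4 genes that rose and none that fell.

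Of the genes of granule exocytosis, 27 of 33 were tested, 1 rose and 2 fell, with a median of 0.01. SYT4, a synaptotagmin, rose by 0.38 on the log2 scale, and SV2A and DOC2B, proteins of vesicles and calcium-triggered fusion, fell by 0.27 and 0.41 (adjusted p = 0.0395, 0.0215 and 0.0316, edgeR). Of the single siRNAs, si47 alone passed the threshold for SYT4 and DOC2B, and none did for SV2A. Leaving out 1 library at a time ended the SYT4 call in 8 of 16 fits, with adjusted p up to 0.176, and the calls of SV2A and DOC2B in 3 of 16 each. With the replicate block 7 genes of this list passed, beside 1817 of 14193 tested genes, and without the low-count filter 6 passed, beside 1268 of 28981.

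Of the sympathetic transcription factors, 24 of 26 were tested, 3 rose and 2 fell, with a median of 0.11. EGR1, an immediate-early factor that can bind promoters of catecholamine genes, was at 7.29 to 10.2 CPM in siNTC and 23.6 to 102 CPM in the knockdown libraries. It rose by 2.55 with si45, 2.79 with si46 and 3.13 with si47 (adjusted p = 0.00207, 5.99e-04 and 9.24e-05, edgeR), and its lowest library in each knockdown group was replicate 3. TBX2 rose by 0.33 and HAND2 by 0.23 for the averaged siRNAs (adjusted p = 0.00378 and 0.0193, edgeR). DACH1 fell by 0.37 and EBF1 by 0.31 (adjusted p = 0.00205 and 0.0110, edgeR). Taken singly, each siRNA passed the threshold for DACH1, si45 and si46 did for TBX2, and si47 alone did for HAND2 and EBF1.

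DACH1 was also the gene whose log2 level followed DBH most closely over the 16 libraries, with Pearson's r = 0.93 among 9678 genes compared. It was at 82.8 to 104 CPM in siNTC and at 63.6 to 77.6 CPM in the 12 knockdown libraries, all below the controls, and it was highest in replicate 2 of siNTC, si45 and si46. MSH3 and URI1 came next for DBH, each with r = 0.87. The 3 genes closest to CHGA were LRATD1 with r = 0.94, VGF with 0.92 and ETV5 with 0.92. VGF shared with CHGA a low value in replicate 3 of each group of knockdown libraries.

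For the other members the closest genes were TRIM28, GIGYF1 and ODF2 for DDC (r = 0.85, 0.80 and 0.80) and NDUFB9, SUGP1 and PGD for SLC6A2 (0.89, 0.80 and 0.79). YRDC, MAP4K4 and ENSG00000255823 were closest to CHGB (each 0.81), and NSL1, ENTPD4 and SETD5 to MAOA (0.86, 0.83 and 0.82). TH, GCH1, SLC18A1 and SLC18A2 had too few counts for this comparison. All of these values are taken over libraries that share 4 groups, and each is the highest of many.

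**Figure D5:**
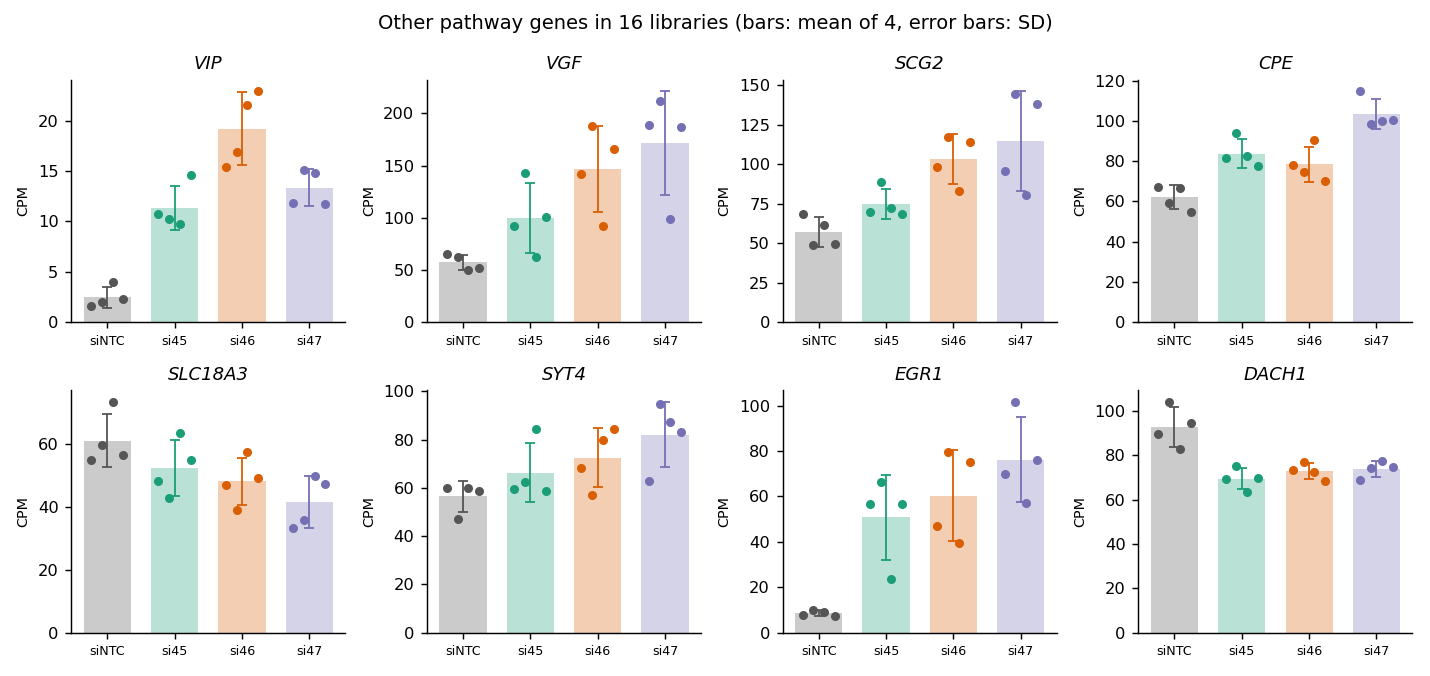
Level in CPM (vertical axis, a separate scale for each gene) of 8 genes from 4 of the lists in the 4 groups; points are libraries in replicate order, bars are means of 4 and error bars are SDs. VIP, SCG2, CPE and EGR1 lie above all siNTC libraries in all 12 knockdown libraries, and DACH1 lies below them in all 12.

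Of the cell types other than the adrenergic neuroblast, most had few counts. Of the leukocyte and endothelial markers, 0 of 7 and 0 of 5 were abundant enough to be tested, with summed levels of at most 3.53 and 1.68 CPM, and the glial marker SOX10 had no count in any library. Of 7 adrenal cortex markers 5 had no count, among them CYP11A1 and CYP17A1. Of 14 mesenchymal neuroblastoma markers 6 were tested. The 14 summed to 478 to 534 CPM in siNTC, 540 to 617 in si45, 492 to 598 in si46 and 482 to 572 in si47. All si45 libraries thus lay above all controls, and the share of single tested genes that did so was not taken. TWIST1 at 244 CPM and VIM at 233 CPM made up most of the siNTC sum, and FOSL2 was next at 8.58 CPM. None of the 6 passed the test, and RUNX2 and AXL had no count. Fibroblast markers summed to 56.8 to 82.1 CPM in siNTC and 37.9 to 103 CPM in the knockdown libraries, with COL1A1 highest. Glial markers summed to 13.8 to 24.96 CPM over all libraries. Cholinergic markers, of which 3 of 6 were tested, were mostly SLC18A3. They summed to 69.1 to 86.8 CPM in siNTC, 54.6 to 79.8 in si45, 52.0 to 75.8 in si46 and 48.3 to 65.7 in si47. Only in si47 did all libraries lie below all controls, which held for 6.98% of single tested genes. The part of these marker shifts in the results for DBH and CHGA was not tested.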

How the data were processed

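RNA of 16 IMR32 libraries was made with a 3' end kit (QuantSeq, 15 PCR cycles) and sequenced from single ends, per the labels' protocols. The authors deposited 1 table of raw counts per Ensembl gene. The submitters' processing notes name FastQC 0.11.7, STAR 2.7.2b, edgeR 3.36.0, limma 3.50.3 and GRCh38, without their roles. The counter, the annotation, the use of strand and the treatment of PCR duplicates are not given in the sources used here, and counting error alone underlies the stated limits for a count of 0.

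Each column was tied to its sample through the siRNA and replicate in its name, and none was left over. Symbols were found for 58434 of 58787 identifiers, and GENCODE v29 gave positions for 58515. Mitochondrially encoded genes were not analysed here. Counts were fitted with edgeR 4.0.16 in R 4.3.3 (filterByExpr with a minimum count of 10 and total of 15, TMM, robust quasi-likelihood, 4 group means, 12 residual degrees of freedom). 7 contrasts were tested, each adjusted by Benjamini-Hochberg over the 14193 genes tested, with a threshold of 0.05. The tested genes held at least 99.6% of the counts of every library. Pairs of replicates differed by 4.36 to 9.80 in chi-square per degree of freedom, so none was 1 library entered again.

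Some genes of the lists are not reported here and were left out of list counts, medians and marker sums. The members and the lists were chosen with earlier results of these data known. Genes named besides the members were TPX2, up to 4 genes per list with the lowest p among those past the threshold in the contrast of the mean, and, for members with a mean count of at least 50, the 3 genes with the highest Pearson r of log2 CPM (prior count 2). Other genes named with a list were chosen after their values were seen. Libraries of si45 and si47 with the same replicate number deviated together in 4 of 4 pairs (r = 0.12 to 0.24), which comes from the values and not from the labels; no other pair of groups had all 4 pairs over 0.1. Other settings tried were DESeq2 1.42.0, limma-voom (limma 3.58.1), scaling by RLE or by upper quartiles, a filter of 10 counts in each library or none, a fit of the compared groups alone, a replicate block and the removal of each library. Removal of the libraries numbered 2 or 3 was added after seeing the data. The fit was tested on simulated data.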

Additional observations from a re-analysis of the deposited data

Results flagged for a closer look

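In 3 of 52 groups of 4 libraries examined, 1 library stood apart from the other 3, where chance at 1 in 20 gives 2.6. TPX2 was at 121 CPM in si45 replicate 3, with the others at 79.4 to 85.1 CPM. CHGB was at 89.9 CPM in si47 replicate 1, with the others at 68.6 to 71.4 CPM. MAOA was at 18.3 CPM in si47 replicate 4, with the others at 13.0 to 13.8 CPM.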

How the results depend on the processing

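DBH had a negative fold change and passed the threshold for each siRNA under every setting run, except that the call, not the sign, was lost for si46 without siNTC replicate 2 (-0.35, adjusted p = 0.0553, edgeR). The number of the 10 genes past the threshold was 1 in place of 2 without the low-count filter for si46, si47 and the mean, where CHGA had adjusted p of 0.0700, 0.0655 and 0.0668 (edgeR) among 28981 genes tested. With the replicate block it was 2 in place of 1 for si45, where CHGA gave 0.33 (adjusted p = 0.0138, edgeR), and over the pairs of siRNAs there were 2 calls in place of 0, both of CHGA (0.50 in si46 and 0.42 in si47 against si45, adjusted p = 9.70e-04 and 0.00249, edgeR). The block moved no other member across the threshold, and CHGA had adjusted p of 2.27e-09, 1.36e-08 and 1.38e-08 for si46, si47 and the mean. Same-numbered libraries had positive correlations of deviations in every pair of groups, but all 4 were over 0.1 only for si45 with si47, and the labels do not say what a number marks. Leaving out each library in turn gave 0 to 2 genes for si46, 1 to 2 for si47 and 1 to 2 for the mean. The fit of the compared groups alone was not run for the mean. Over all tested genes the block gave 577, 1073, 2198 and 1817 calls for si45, si46, si47 and the mean, against 190, 482, 1382 and 1014 without it. For the mean, 1 gene passed in the transporter list, 3 in the exocytosis list, 5 among the transcription factors and 0 in the cofactor list. With the block the first 3 lists gave 3, 7 and 10, without the libraries numbered 2 the first 2 gave 0 and 1, and without those numbered 3 the transporter, transcription factor and cofactor lists gave 3, 8 and 1. Without the low-count filter the transporter and exocytosis lists gave 2 and 6, and DESeq2 gave 6 for exocytosis. Over all tested genes the mean gave 465 calls of 14154 without the libraries numbered 2 and 1336 of 14343 without those numbered 3. The totals were 1268 of 28981 without the low-count filter and 1233 of 14193 with DESeq2.

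Signs changed only for values far from the threshold. Leaving out 1 library gave, as lowest and highest log2 values, -0.24 to 0.0020 for TPX2 in si46 against si45, -0.12 to 0.018 for DBH and -0.26 to 0.094 for CHGA in si47 against si46, -0.14 to 0.39 and -0.39 to 0.16 for TH in si45 and si46, -0.40 to 0.16 and -0.033 to 0.35 for GCH1 in si45 and si46, and, in si45, -0.078 to 0.072 for SLC6A2, -0.049 to 0.14 for CHGB and -0.036 to 0.12 for MAOA. Without the libraries numbered 2, DDC in si47 was 0.046, GCH1 in si46 was -0.18, and SLC6A2 was 0.085 in si45 and 0.0044 in si47. Without those numbered 3, GCH1 in si46 was -0.066, SLC6A2 for the mean was -0.048 and MAOA in si45 was -0.082. Without the libraries numbered 2, SLC18A3, DOC2B, SYT4 and EBF1 for the mean also missed the threshold (adjusted p = 0.201, 0.122, 0.161 and 0.105, edgeR), and without those numbered 3, or with limma-voom, SYT4 did (0.0778 and 0.0588). The cause was not tested. Depth limits TH, GCH1 and SLC18A2, which had 7 to 32 counts in a library, and SLC18A1, which had 2 in all.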
